A study of Mus musculus with 6 samples.

Results

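The 35 genes described here encode the protein-folding machinery of the mouse heart and the regulators that adjust it: 19 genes of the endoplasmic reticulum (ER) stress response and 16 heat shock proteins and co-chaperones of the cytosol and mitochondria. They were chosen by gene symbol and known function, with earlier results of these data known. All 35 are among the 24404 rows of the gene count table, and all 35 are among the 12487 genes that passed the filter on low counts. RNA was sequenced from 3 heart samples of mice lacking miR-204 (miR-204-/-, called KO-TAC) and 3 heart samples of wild-type mice (WT-TAC). All the mice had undergone transaortic constriction, an operation that narrows the aorta so that the left ventricle pumps against a raised pressure, and tissue was taken 5 weeks later. The comparison asks how the loss of the microRNA alters gene expression in the pressure-loaded heart. Neither genotype has an unoperated group here, so the response to the operation itself is not measured. Strain, age, sex, the part of the heart and the extent of the deletion in the body are not stated in the labels.

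Proteins that enter the ER fold there with the help of luminal chaperones and disulfide isomerases. When unfolded protein accumulates, the sensors ATF6, IRE1 and PERK act through the transcription factors ATF6, XBP1 and ATF4, which raise chaperones, protein degradation and amino acid supply, and prolonged signalling induces CHOP, the product of Ddit3. In the cytosol the factor HSF1 plays the corresponding part for HSP70, HSP90 and the small heat shock proteins, which in heart muscle also guard the sarcomere and the desmin network.

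The sequences below show the promoter letters through which these branches are known to act, because the results are ordered by branch. RefSeq promoters (GRCm38.p6, 250 bases before to 50 after the start site) were at hand for 28 of the 35 genes. Some genes have several promoters, and a gene was counted where any of them held the match. The ER stress response element, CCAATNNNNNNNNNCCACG, is the textbook site of ATF6 with NF-Y, and a search of both strands found it in 6 of the 28, all of them among the 11 ER folding genes with a promoter. Across all 32851 promoters it was present in 39, or 0.119%, and among the 9460 tested genes with a promoter it was present in 15. The matches are printed 5′ to 3′ as the element reads, with the CCAAT and CCACG blocks in capitals, and Hsp90b1 holds the element at 2 places.
Hspa5 ER stress response element: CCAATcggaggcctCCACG
Hsp90b1 ER stress response element: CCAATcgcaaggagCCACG
Hsp90b1 ER stress response element: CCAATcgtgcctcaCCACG
Calr ER stress response element: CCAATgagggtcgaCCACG
Canx ER stress response element: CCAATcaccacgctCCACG
Pdia6 ER stress response element: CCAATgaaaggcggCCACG
Creld2 ER stress response element: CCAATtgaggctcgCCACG
The elements lie between 65 and 212 bases before the start sites. The Hspa5 promoter, the best-studied target of this branch, is printed whole with its element in capitals, on the plus strand at chr2:34771840-34772139.
Hspa5 promoter: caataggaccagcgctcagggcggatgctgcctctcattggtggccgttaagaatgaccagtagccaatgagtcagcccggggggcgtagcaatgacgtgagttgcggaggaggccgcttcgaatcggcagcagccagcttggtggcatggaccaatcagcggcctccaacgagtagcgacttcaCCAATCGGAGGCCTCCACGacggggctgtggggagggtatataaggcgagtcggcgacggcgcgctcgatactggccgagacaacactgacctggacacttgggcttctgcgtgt
The Calr promoter, on the minus strand at chr8:84846882-84847181, is shown because Calr is one of the pair of genes with the smallest p-values below. Its element reads on the opposite strand to the gene.
Calr promoter: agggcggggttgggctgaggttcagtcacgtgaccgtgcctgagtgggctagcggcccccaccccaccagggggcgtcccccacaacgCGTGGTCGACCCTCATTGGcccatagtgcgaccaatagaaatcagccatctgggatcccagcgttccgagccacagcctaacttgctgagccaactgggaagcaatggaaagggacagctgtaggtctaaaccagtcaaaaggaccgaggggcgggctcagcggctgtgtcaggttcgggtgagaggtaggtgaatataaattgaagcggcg
The other gene of that pair, Pdia4, on the minus strand at chr6:47813463-47813762, holds no such element in this window. Its CCAAT boxes are in capitals. On either strand such a box occurs in 20 of the 28 genes, in 42.2% of the tested genes with a promoter and in 37.4% of all promoters. CCAAT is also the first block of the element above.
Pdia4 promoter: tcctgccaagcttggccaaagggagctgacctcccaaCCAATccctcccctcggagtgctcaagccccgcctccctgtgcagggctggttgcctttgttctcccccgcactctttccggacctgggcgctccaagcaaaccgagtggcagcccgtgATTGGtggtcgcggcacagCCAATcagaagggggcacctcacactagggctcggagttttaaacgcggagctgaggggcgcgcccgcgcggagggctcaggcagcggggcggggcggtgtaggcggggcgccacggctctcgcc

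A short heat shock element, GAANNTTC or TTCNNGAA, was found in 10 of the 28 genes. It occurred in 15.1% of all promoters and in 14.1% of the 9460 tested genes with a promoter. It was present in 4 of the 5 cytosolic genes, 3 of the 4 small heat shock genes and both mitochondrial genes with a promoter (Hspd1 and Hspe1), and in 0 of the 11 ER folding genes. The remaining match was Asns. The longer form GAANNTTCNNGAA or TTCNNGAANNTTC, which contains the short form, was found in Hsph1, Hspd1 and Hspe1. It occurred in 0.603% of all promoters and in 0.645% of the tested genes with a promoter. Hspd1 and Hspe1 stand head to head on chromosome 1, and a promoter window of Hspd1 shares 285 bases with that of Hspe1, read on opposite strands. Another Hspd1 window shares 4 bases with it and holds 0 short heat shock elements. The shared 285 bases lie within the Hspe1 promoter. It is printed from the plus strand, chr1:55087898-55088197, with the heat shock element in capitals.
Hspe1 promoter: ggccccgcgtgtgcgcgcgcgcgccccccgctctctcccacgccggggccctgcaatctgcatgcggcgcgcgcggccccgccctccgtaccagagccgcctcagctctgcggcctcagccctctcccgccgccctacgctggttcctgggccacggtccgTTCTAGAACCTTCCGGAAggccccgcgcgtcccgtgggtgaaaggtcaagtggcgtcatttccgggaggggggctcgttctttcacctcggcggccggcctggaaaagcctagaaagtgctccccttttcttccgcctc
The ATF4 element TGATGNAA was found in 4 of the 28 genes, Herpud1, Trib3, Asns and Chac1. It occurred in 3.97% of all promoters and in 2.73% of the tested genes with a promoter. The core TGACGTGG was found in 0 of the 28 genes, in 0.676% of all promoters and in 1.06% of the tested genes with a promoter. These matches describe letters in a window of 300 bases and carry no information on binding in these hearts.

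The missing microRNA itself is printed with its seed, bases 2 to 8, in capitals. Its precursor lies on chromosome 19.
miR-204-5p: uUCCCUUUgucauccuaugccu
The row for Mir204 had 0 counts in all 6 libraries, so libraries of this kind could not check the deletion. The match to the seed, AAAGGGA, occurred in the longest annotated 3′ untranslated region of 2 of the 35 genes (5.71%), against 2114 of 11707 tested genes (18.1%). The regions of the 35 genes had a median of 788 bases, against 1437 bases for the tested genes. The 2 genes were Atf6, with 2 matches, and Hspa9, with 1. The Atf6 matches begin at bases 508 and 839 of its untranslated region, and each is shown with its neighbouring bases.
Atf6 site: agagtttgggtAAAGGGAttatctccagt
Atf6 site: ccagactcagcAAAGGGActtggaggtca

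The libraries held 6609315, 8494415 and 7013199 counts in KO-TAC hearts and 6411538, 8571737 and 7207111 counts in WT-TAC hearts. Nothing in the labels says that the samples of a group came from separate animals, and p-values then measure the spread between these samples. The column taken for KO-TAC replicate 3 carries a leading number that differs from that sample's label and equals the leading number of WT-TAC replicate 3. It was assigned through its index number, which no other sample shares. Without that library the median log2 fold change of the 19 ER genes was 0.23, against 0.09 with it, and that of the 16 heat shock genes was 0.15, against 0.19 with it. The 7 cardiomyocyte markers summed to 63537 to 92133 counts per 1000000 (CPM, on library totals scaled by edgeR's TMM method) in KO-TAC hearts and 71057 to 82143 CPM in WT-TAC hearts, far above each of the other marker lists. The summed 6 blood endothelial markers were higher in each KO-TAC library (1176 to 1279 CPM) than in each WT-TAC library (920 to 1087 CPM), and the 5 smooth muscle markers were lower (66.8 to 183 CPM in KO-TAC hearts against 205 to 270 CPM in WT-TAC hearts), while 0 of these markers passed the test. The 6 fibroblast markers spanned 973 to 2289 CPM in KO-TAC hearts and 1152 to 2325 CPM in WT-TAC hearts, and the 5 atrial markers spanned 231 to 1194 CPM in KO-TAC hearts and 670 to 1041 CPM in WT-TAC hearts. Their part in the values below was not tested, and in bulk tissue fewer cells of a type and less RNA per cell cannot be told apart.

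None of the 35 genes passed the test between KO-TAC and WT-TAC hearts at an adjusted p under 0.05. The test was the quasi-likelihood F-test of edgeR, adjusted over all 12487 genes by the Benjamini-Hochberg method, and each of the 35 had an adjusted p of 0.999. Over the whole table the same test called 3 genes, 0.024%, of which 2 were higher in KO-TAC hearts (0.016%) and 1 was lower (0.00801%). DESeq2 also called 0 of the 35, with 17 genes called over the table (0.0959%). An unadjusted p under 0.05 was reached by 2 of the 35, Pdia4 and Calr, with either tool, both higher in KO-TAC hearts. In edgeR 2.93% of all tested genes reached it, 1.36% on the higher side and 1.57% on the lower. Leaving out WT-TAC replicate 2 or 3, or KO-TAC replicate 1 or 2, left 0 of the 35 at that level. Without WT-TAC replicate 1 there were 4 (Calr, Creld2, Hsp90aa1 and Hspb1), beside 437 of the 12866 genes tested in that fit. Without KO-TAC replicate 3 there were also 4 (Calr, Pdia4, Dnajb9 and Hspb1), beside 723 of 12948. The main fit had 366 of 12487 genes at that level, and the fits with 0 of the 35 had 297 to 489. The 95% interval of the fold (KO-TAC over WT-TAC) lay inside 2-fold in either direction for 26 of the 35 genes and inside 1.5-fold for 8, namely Hsp90b1, Canx, Pdia3, Pdia6, Atf4, Hsp90ab1, Hspb6 and Hspa9. For 9 genes, Sdf2l1, Creld2, Dnajb9, Trib3, Asns, Chac1, Hspa1a, Hspa1b and Hspb1, the interval reached 2-fold.

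The log2 fold changes were positive for 25 of the 35 genes and negative for 10, with a median of 0.14, beside 50.2% positive and a median of 0.0012 over all tested genes. By branch, the medians were 0.12 for the 12 ER folding genes, -0.01 for the 7 ER stress regulators, 0.21 for the 8 cytosolic genes, 0.20 for the 5 small heat shock genes and 0.02 for the 3 mitochondrial genes. The libraries of KO-TAC hearts did not overlap those of WT-TAC hearts for 2 genes in the higher direction, Pdia4 and Hsp90b1 (4.26% of all tested genes), and for 1 in the lower direction, Chac1 (3.72%).

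**Figure D1:**
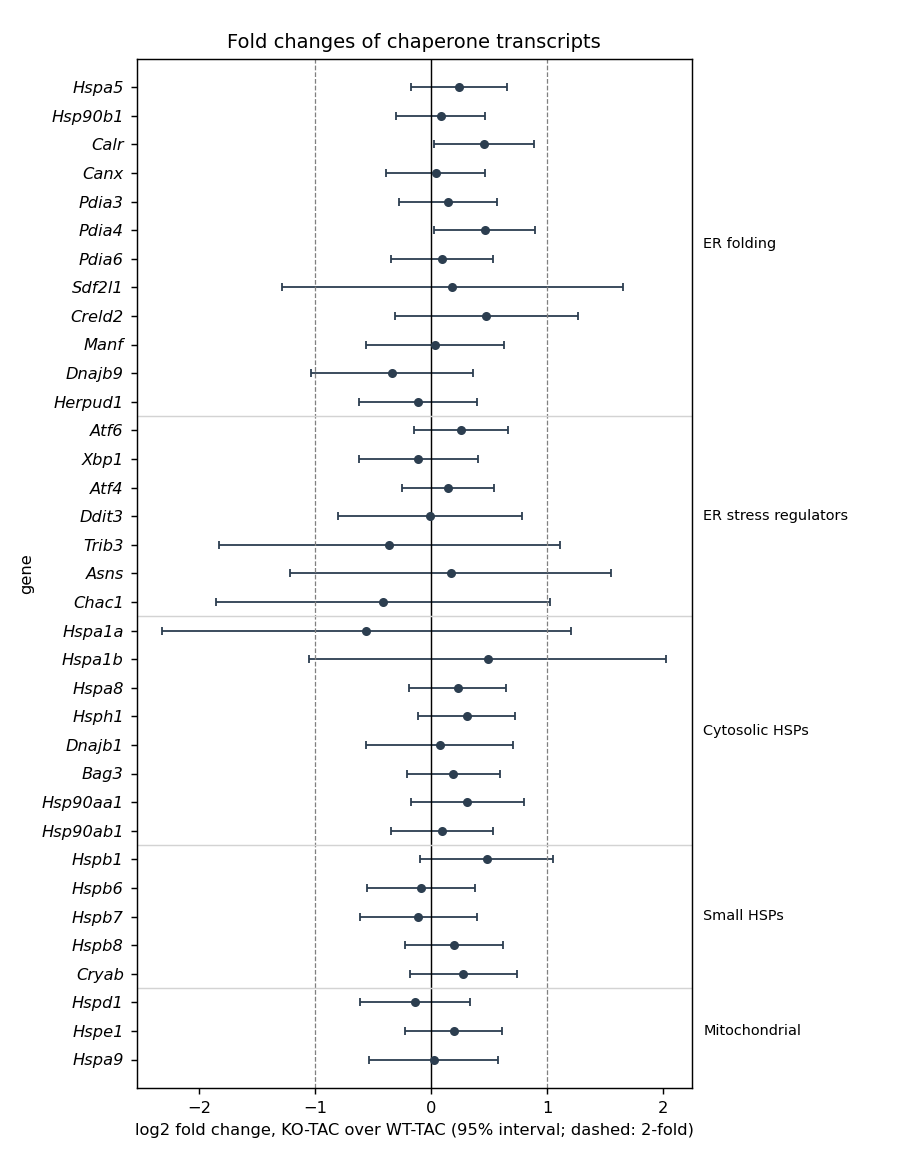
Log2 fold change of KO-TAC over WT-TAC hearts for each of the 35 genes, grouped by branch, with its 95% interval from edgeR. All intervals but those of Calr and Pdia4 cross 0, and the widest belong to the genes with the fewest counts, such as Hspa1a.

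Among the ER folding genes, Pdia4 and Calr averaged higher in KO-TAC hearts with the smallest p-values of the 35, short of the threshold after adjustment, while the means of Hspa5 and Hsp90b1 lay closer together. Pdia4, an ER disulfide isomerase, had 93.2, 71.3 and 60.3 CPM in KO-TAC hearts, against 55.7, 50.2 and 57.7 CPM in WT-TAC hearts. All 3 KO-TAC libraries stood above all 3 WT-TAC libraries, the nearest being 60.3 against 57.7 CPM, and the means were 74.9 ± 16.8 CPM in KO-TAC hearts and 54.5 ± 3.89 CPM in WT-TAC hearts (SD, n = 3 each). The log2 fold change was 0.46 ± 0.20, a fold of 1.02 to 1.86 at 95%. It was 0.27 without KO-TAC replicate 1, which held the highest value.

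Calr, encoding the luminal lectin chaperone calreticulin, had 481, 447 and 321 CPM in KO-TAC hearts, against 326, 281 and 304 CPM in WT-TAC hearts. KO-TAC replicates 1 and 2 stood above every WT-TAC library, and KO-TAC replicate 3 lay below the highest of them. The means were 416 ± 84.2 CPM in KO-TAC hearts and 303 ± 22.2 CPM in WT-TAC hearts (SD, n = 3 each). The log2 fold change was 0.46 ± 0.20, and leaving out 1 library at a time gave 0.34 to 0.61. Canx, encoding calnexin, its membrane-bound relative, had 419, 437 and 496 CPM in KO-TAC hearts, against 358, 446 and 513 CPM in WT-TAC hearts, with groups that overlapped and a log2 fold change of 0.04 ± 0.20.

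Hspa5, encoding BiP, the ER member of the HSP70 family and the master chaperone of this compartment, had 572, 425 and 509 CPM in KO-TAC hearts, against 386, 433 and 458 CPM in WT-TAC hearts. KO-TAC replicate 2 lay inside the WT-TAC range while the other KO-TAC libraries were above it, and the log2 fold change was 0.24 ± 0.19. Hsp90b1, the ER HSP90 called GRP94, had 595, 557 and 589.9 CPM in KO-TAC hearts, against 540.2, 552 and 556 CPM in WT-TAC hearts. The lowest KO-TAC and the highest WT-TAC library were 557 and 556 CPM, a gap far smaller than the spread within KO-TAC hearts, and the log2 fold change was 0.08 ± 0.18 with a fold of 0.808 to 1.38 at 95%.

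The other disulfide isomerases had overlapping groups. Pdia3, which works with the lectin chaperones, had 224, 179 and 144 CPM in KO-TAC hearts, against 168, 158 and 170.2 CPM in WT-TAC hearts. Pdia6 had 95.6, 72.1 and 60.1 CPM in KO-TAC hearts, against 73.5, 77.1 and 63.4 CPM in WT-TAC hearts. Their log2 fold changes were 0.14 ± 0.19 for Pdia3 and 0.09 ± 0.20 for Pdia6. KO-TAC replicate 1 was the highest of the 6 libraries for both, as for Pdia4.

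Of the remaining ER folding genes, all but Herpud1 had fewer counts than those above. Creld2, a secreted ER stress-induced protein with disulfide-related domains, had 17.8, 10.7 and 20.2 CPM in KO-TAC hearts, against 17.8, 7.46 and 10.00 CPM in WT-TAC hearts, and its log2 fold change of 0.47 ± 0.37 left a fold of 0.804 to 2.40 at 95%. Manf, a secreted factor induced by ER stress, had 35.5, 22.7 and 17.6 CPM in KO-TAC hearts, against 27.7, 21.6 and 24.9 CPM in WT-TAC hearts, and the groups overlapped with a log2 fold change of 0.03 ± 0.28. Sdf2l1, a partner of ER HSP70 co-chaperones, spanned 1.82 to 4.82 CPM in KO-TAC hearts and 1.10 to 4.02 CPM in WT-TAC hearts, with a log2 fold change of 0.18 ± 0.68. Dnajb9, the BiP co-chaperone ERdj4, had 21.8, 16.0 and 39.9 CPM in KO-TAC hearts, against 24.9, 30.8 and 42.5 CPM in WT-TAC hearts, with a log2 fold change of -0.34 ± 0.32. Herpud1, which serves the degradation of ER proteins, had 104, 115 and 102 CPM in KO-TAC hearts, against 80.2, 104 and 164 CPM in WT-TAC hearts, with a log2 fold change of -0.11 ± 0.24. KO-TAC libraries were close together for Herpud1, and WT-TAC replicate 3 stood far above the other WT-TAC libraries.

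KO-TAC replicate 1 held the highest value of 8 of the 12 ER folding genes and lay above the mean over the 6 libraries for 9 of them, the exceptions being Canx, Dnajb9 and Herpud1, with a median of 0.39 log2 units above that mean. It also lay above the mean for 6 of the 7 ER stress regulators and 25 of all 35 genes. Over all tested genes it lay above the mean for 53.7% and was highest for 17.3%. Of the 12 ER folding genes, WT-TAC replicate 3 was highest for 3 and KO-TAC replicate 3 for 1, beside 13.7% and 18.7% of all tested genes. WT-TAC replicate 1 was lowest for 5. Without KO-TAC replicate 1 the median log2 fold change over all 19 ER genes was -0.03, against 0.09 with every library. Several marker sums moved with KO-TAC replicate 1: of the 6 libraries it had the highest atrial (1194 CPM), macrophage (253 CPM) and endothelial (1279 CPM) sums and the lowest cardiomyocyte sum (63537 CPM). The sum of the fibroblast markers was 2289 CPM in KO-TAC replicate 1, the highest of the KO-TAC libraries, and 2325 CPM in WT-TAC replicate 1, a similar level. The part of these cell types in the values of the folding genes was not tested.

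**Figure D2:**
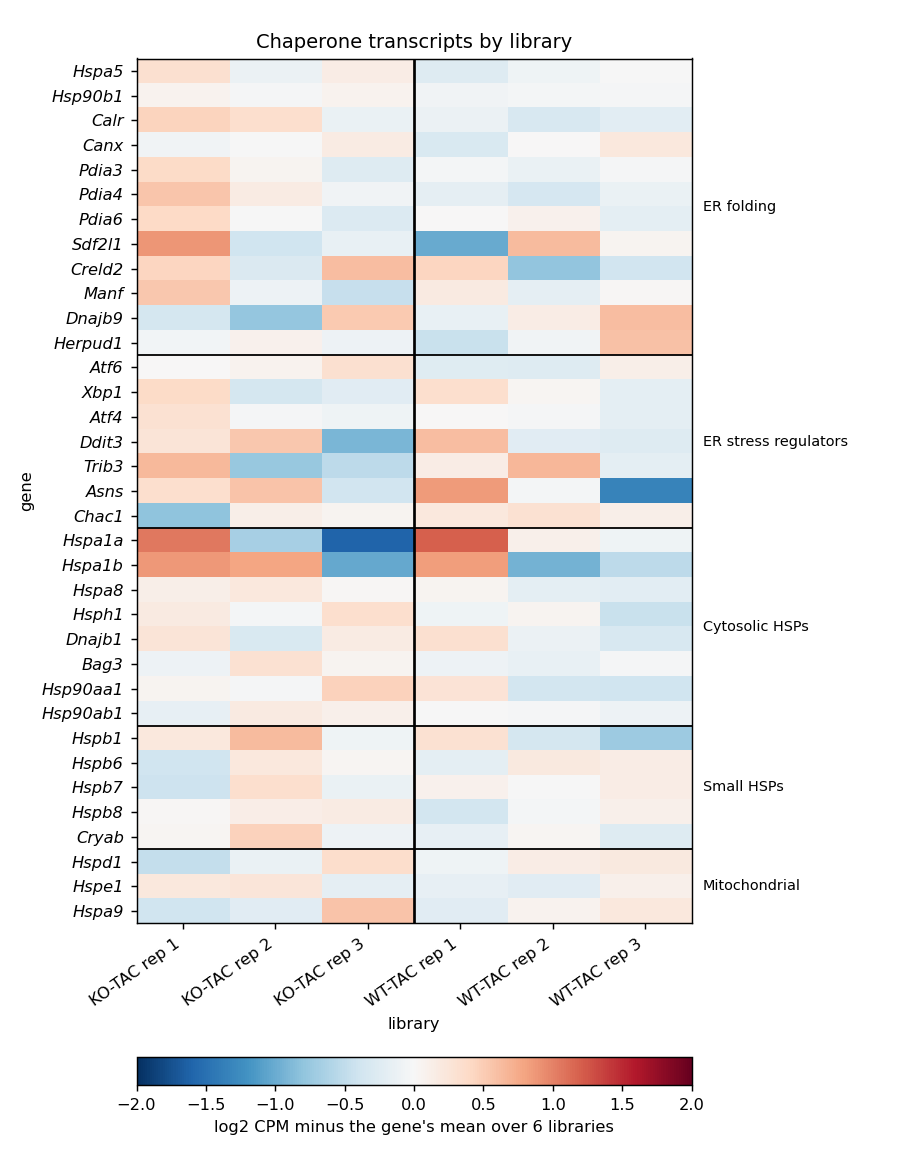
Deviation of each gene's log2 CPM from its mean over the 6 libraries, KO-TAC libraries on the left and WT-TAC libraries on the right, genes grouped by branch. The ER folding genes are mostly red (high) in KO-TAC replicate 1, which held the highest value for 8 of 12.

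The 7 ER stress regulators gave no common direction: 3 log2 fold changes were positive, 4 negative. Atf6, encoding the ER membrane sensor and transcription factor and holding both seed matches shown above, had 203, 210.3 and 249 CPM in KO-TAC hearts, against 169, 167 and 217 CPM in WT-TAC hearts. The groups overlapped, since WT-TAC replicate 3 exceeded KO-TAC replicates 1 and 2, and the log2 fold change was 0.26 ± 0.19, a fold of 0.904 to 1.58 at 95%. Xbp1, the substrate of IRE1 splicing, had 57.3, 34.5 and 37.7 CPM in KO-TAC hearts, against 55.8, 45.4 and 38.5 CPM in WT-TAC hearts, with a log2 fold change of -0.11 ± 0.24; gene counts do not separate its spliced form from the unspliced form. Atf4, the transcription factor downstream of PERK that is controlled largely at translation, had 98.9, 79.1 and 75.7 CPM in KO-TAC hearts, against 80.4, 78.8 and 70.1 CPM in WT-TAC hearts, with a log2 fold change of 0.15 ± 0.18. Ddit3, whose product CHOP promotes cell death under lasting ER stress, had 25.4, 31.0 and 11.1 CPM in KO-TAC hearts, against 32.6, 18.1 and 17.7 CPM in WT-TAC hearts. Both groups were wide for Ddit3, with a log2 fold change of -0.01 ± 0.37 and a fold of 0.572 to 1.72, so neither an excess nor a deficit within that range could be told from no difference.

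Trib3, Asns and Chac1, known targets of ATF4, had few counts, at 1.02 to 5.98 CPM over the 6 libraries. Trib3, a pseudokinase, had 3.65, 1.22 and 1.48 CPM in KO-TAC hearts, against 2.52, 3.67 and 1.92 CPM in WT-TAC hearts. Asns, encoding asparagine synthetase, had 4.09, 4.86 and 2.36 CPM in KO-TAC hearts, against 5.98, 3.10 and 1.10 CPM in WT-TAC hearts. Chac1, which degrades glutathione, had 1.02, 2.19 and 2.07 CPM in KO-TAC hearts, against 2.36, 2.52 and 2.19 CPM in WT-TAC hearts. The Chac1 libraries of KO-TAC hearts lay below those of WT-TAC hearts, though KO-TAC replicate 2 and WT-TAC replicate 3 both rounded to 2.19 CPM. The log2 fold changes were -0.36 ± 0.68 for Trib3, 0.17 ± 0.64 for Asns and -0.42 ± 0.67 for Chac1, and an interval that reached 2-fold left each of them poorly limited.

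**Figure D3:**
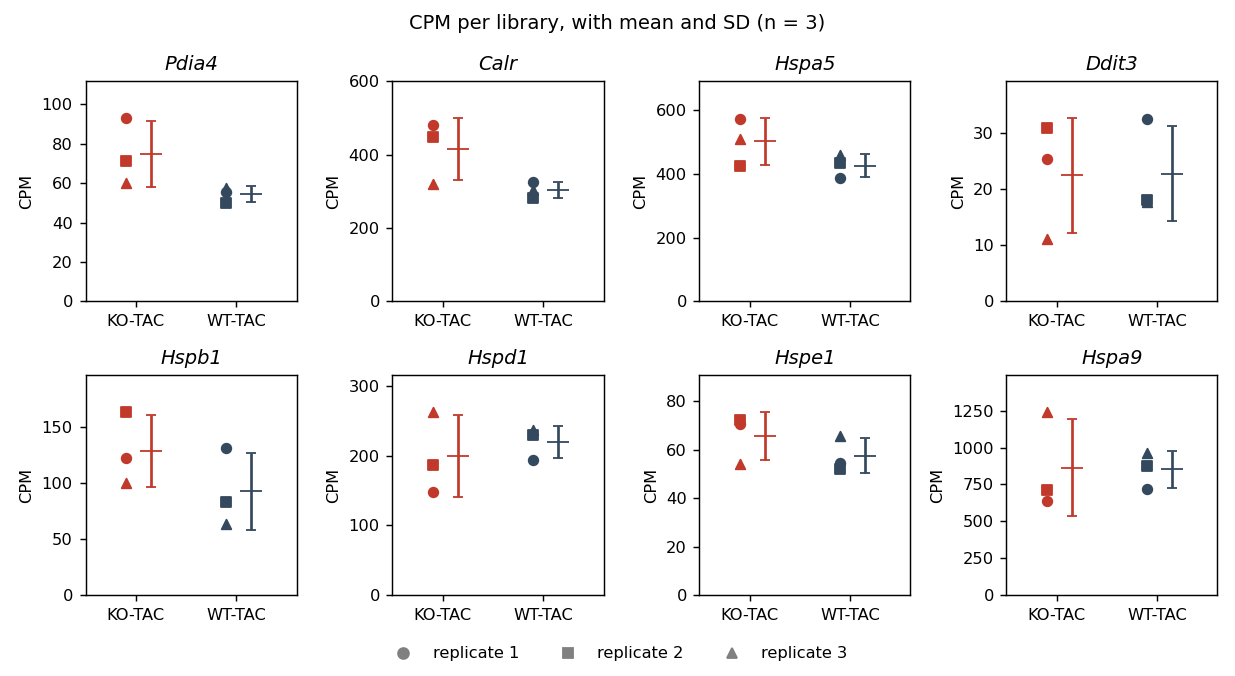
CPM in each KO-TAC library (red, left) and WT-TAC library (blue, right) for 8 of the genes, with the mean and SD of 3 libraries beside the points. For Pdia4 all KO-TAC points lie above all WT-TAC points, and for Hspb1, Hspd1, Hspe1 and Hspa9 the groups overlap.

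Among the cytosolic genes, the transcripts of the constitutive HSP70 and HSP90 were the most abundant and the stress-inducible HSP70 genes had few counts. Hspa8, encoding constitutive HSC70, had 1224, 1296 and 1142 CPM in KO-TAC hearts, against 1167, 987 and 975 CPM in WT-TAC hearts. KO-TAC replicates 1 and 2 exceeded every WT-TAC library, and the log2 fold change was 0.23 ± 0.20. Hsp90ab1, the constitutive HSP90, had 1787, 2269 and 2149.9 CPM in KO-TAC hearts, against 1994, 1962 and 1857 CPM in WT-TAC hearts, with a log2 fold change of 0.09 ± 0.20. Hsp90aa1, the inducible HSP90, had 264, 248 and 350.2 CPM in KO-TAC hearts, against 307, 196 and 192 CPM in WT-TAC hearts, with a log2 fold change of 0.31 ± 0.23, and WT-TAC replicate 1 lay above KO-TAC replicates 1 and 2. The ratio of Hsp90aa1 to Hsp90ab1 CPM was 0.148, 0.110 and 0.163 in KO-TAC hearts, against 0.154, 0.0999 and 0.103 in WT-TAC hearts, with overlapping groups.

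Hsph1, encoding the nucleotide exchange factor HSP110, had 105, 89.9 and 117 CPM in KO-TAC hearts, against 87.6, 96.5 and 67.7 CPM in WT-TAC hearts, with a log2 fold change of 0.31 ± 0.19. Dnajb1, encoding the HSP40 co-chaperone that the heat shock response induces, had 17.7, 11.9 and 16.5 CPM in KO-TAC hearts, against 18.6, 13.5 and 11.8 CPM in WT-TAC hearts, with a log2 fold change of 0.07 ± 0.29. Bag3, which links HSP70 and HSPB8 to the clearance of damaged sarcomere proteins, had 352, 469 and 394 CPM in KO-TAC hearts, against 352, 342 and 371 CPM in WT-TAC hearts, with a log2 fold change of 0.19 ± 0.19. WT-TAC replicate 3 was the lowest library for 4 of the 8 cytosolic genes and above the mean for 0 of them. Over all tested genes it lay above the mean for 50.5%.

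Hspa1a and Hspa1b, the stress-inducible HSP70 genes, differ little: their transcripts are 99.2% identical over 2201 aligned bases with a longest identical run of 638, and the 300-base promoters differ at 4 bases. The genes lie 9951 bases apart on chromosome 17, and reads within identical stretches cannot be assigned to either. How the authors' counting treated reads that map to several places is not stated. If such reads were dropped, the counts of both genes would be too low, so their low counts need not mean low expression. The counts were 29, 9 and 3 for Hspa1a and 35, 40 and 8 for Hspa1b in KO-TAC hearts, against 30, 18 and 13 for Hspa1a and 32, 11 and 13 for Hspa1b in WT-TAC hearts. The separate log2 fold changes, -0.56 ± 0.82 for Hspa1a and 0.49 ± 0.72 for Hspa1b, rest on few counts. Leaving out 1 library at a time gave -1.84 to -0.02 for Hspa1a (lowest without KO-TAC replicate 1) and 0.14 to 1.28 for Hspa1b (highest without WT-TAC replicate 1). Summed, the pair had 64, 49 and 11 counts in KO-TAC hearts and 62, 29 and 26 counts in WT-TAC hearts, with a log2 fold change of 0.04 ± 0.61 and a fold of 0.410 to 2.57 at 95%. The Hspa1a promoter, on the minus strand at chr17:34972107-34972406, is printed with its heat shock element in capitals.
Hspa1a promoter: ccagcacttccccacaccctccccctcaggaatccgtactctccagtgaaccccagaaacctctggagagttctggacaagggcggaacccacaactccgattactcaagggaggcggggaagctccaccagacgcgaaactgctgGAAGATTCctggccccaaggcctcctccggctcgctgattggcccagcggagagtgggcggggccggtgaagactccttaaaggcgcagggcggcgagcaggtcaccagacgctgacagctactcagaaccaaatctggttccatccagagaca
The summed level of the pair was 1.63 to 9.35 CPM in KO-TAC hearts and 3.33 to 9.75 CPM in WT-TAC hearts, with overlapping groups.

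Of the 5 most abundant of the 35 genes per length of annotated exon, 4 were small heat shock genes, the exception being Hsp90ab1. Hspa8 ranked 6, close behind Hspb8, at 263 CPM per kilobase. The length joins the exons of all annotated transcripts of a gene, 4301 bases for Hspa8. It can exceed the length of a single transcript, so the ranks depend on it. Per kilobase of exon, Hspb7 averaged 1026 CPM over the 6 libraries, Cryab 702, Hsp90ab1 668, Hspb6 383 and Hspb8 275, against 110 for Hspa5 and 0.805 for Hspa1a. As a share of the summed per-kilobase level of all 35 genes, the small heat shock genes made up 51.9 ± 4.35% in KO-TAC hearts and 53.5 ± 0.902% in WT-TAC hearts (SD, n = 3 each). The cytosolic genes made up 25.2 ± 1.04% in KO-TAC hearts and 24.2 ± 1.75% in WT-TAC hearts. ER folding genes took 14.4 ± 2.66% in KO-TAC hearts and 13.4 ± 0.780% in WT-TAC hearts, with KO-TAC replicate 1 at 17.3%. The mitochondrial genes took 6.63 ± 2.00% in KO-TAC hearts and 7.00 ± 0.788% in WT-TAC hearts, and the ER stress regulators 1.86 ± 0.375% in KO-TAC hearts and 1.84 ± 0.212% in WT-TAC hearts. These shares overlapped between groups in every branch.

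**Figure D4:**
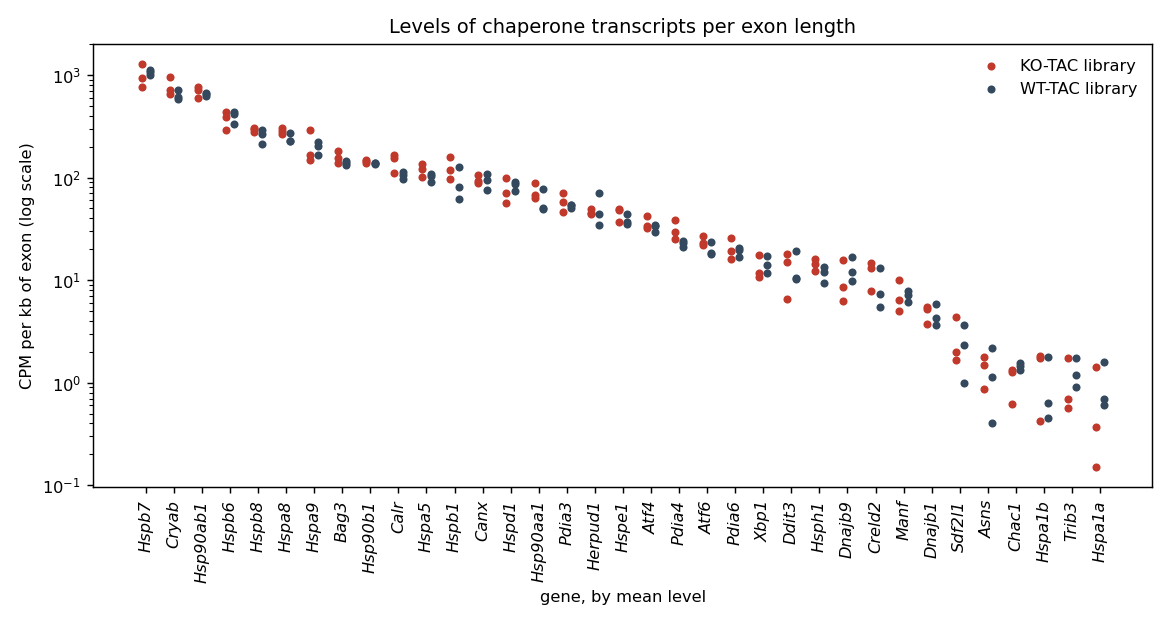
Level of each of the 35 genes in CPM per kilobase of exon on a log axis, KO-TAC libraries (red, left) and WT-TAC libraries (blue, right), with genes ordered by their mean level. The small heat shock genes Hspb7 and Cryab lie at the top, averaging 1026 and 702 over the 6 libraries, and Hspa1a lies lowest at 0.805.

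Hspb1 encodes HSP25, the mouse counterpart of human HSP27, an actin-protecting small heat shock protein. It had 122, 164 and 99.7 CPM in KO-TAC hearts, against 131, 82.5 and 63.5 CPM in WT-TAC hearts. KO-TAC replicate 2 was the highest and WT-TAC replicate 1 exceeded both other KO-TAC libraries, with a log2 fold change of 0.48 ± 0.26. Cryab, encoding alpha-B crystallin, which binds desmin, had 1047, 1409 and 954 CPM in KO-TAC hearts, against 909, 1055 and 853 CPM in WT-TAC hearts, with a log2 fold change of 0.28 ± 0.21. Hspb8, the BAG3 partner, had 539, 581 and 598 CPM in KO-TAC hearts, against 411, 517 and 572 CPM in WT-TAC hearts, with a log2 fold change of 0.20 ± 0.20. Hspb6, encoding HSP20, had 664, 1007 and 891 CPM in KO-TAC hearts, against 764, 997 and 962 CPM in WT-TAC hearts, with a log2 fold change of -0.09 ± 0.22. Hspb7, a cardiac small heat shock protein, had 2101, 3529 and 2561 CPM in KO-TAC hearts, against 2978, 2783 and 3102 CPM in WT-TAC hearts, with a log2 fold change of -0.11 ± 0.23. KO-TAC replicate 2 held the highest value for 4 of the 5 small heat shock genes, and was above the mean for all 5. Over all tested genes it was highest for 15.5% and above the mean for 52.5%. The Cryab to Hspb7 ratio was 0.498, 0.399 and 0.373 in KO-TAC hearts and 0.305, 0.379 and 0.275 in WT-TAC hearts. The lowest KO-TAC ratio lay just under the highest WT-TAC ratio.

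The mitochondrial chaperones, which fold matrix proteins, showed no common direction. Hspd1, encoding HSP60, had 148, 187 and 263 CPM in KO-TAC hearts, against 193, 229 and 237 CPM in WT-TAC hearts, with a log2 fold change of -0.14 ± 0.22. Hspe1, encoding its partner HSP10 from an overlapping promoter, had 70.4, 72.4 and 54.1 CPM in KO-TAC hearts, against 54.6, 52.1 and 65.6 CPM in WT-TAC hearts, with a log2 fold change of 0.19 ± 0.19. The ratio of Hspd1 to Hspe1 CPM was 2.10, 2.58 and 4.86 in KO-TAC hearts, against 3.54, 4.40 and 3.61 in WT-TAC hearts. Hspa9, encoding mitochondrial HSP70 and holding a single seed match, had 635, 715 and 1244 CPM in KO-TAC hearts, against 717, 876 and 964 CPM in WT-TAC hearts, with a log2 fold change of 0.02 ± 0.26. KO-TAC replicate 3 was the highest library for Hspd1 and Hspa9, and the lowest KO-TAC library for Hspe1. Without it the log2 fold changes were -0.39 for Hspd1 and -0.34 for Hspa9.

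The wider pathways were read from lists of 113 other genes, of which 108 passed the filter. By edgeR or DESeq2, 0 of the 108 passed the adjusted threshold. An unadjusted p under 0.05 was reached by 1, Ahsa1, in edgeR, beside 2.93% of all tested genes, and by 0 in DESeq2. The groups did not overlap for 7 of the 108 in the higher direction and 3 in the lower, beside 4.26% and 3.72% of all tested genes. The log2 fold changes of the 108 were positive for 71 and negative for 37, with a median of 0.08. Other ER quality control genes split 17 positive to 15 negative (32 tested), and other integrated stress response genes split 13 to 7 (20 tested). Other cytosolic co-chaperones and heat shock factors split 24 to 11 (35 tested) with a median of 0.03, and the mitochondrial quality control genes split 9 to 4 (13 tested).

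By their smallest p, the leading genes were these. Dnajb11, the BiP co-chaperone ERdj3, had 62.0, 62.1 and 47.9 CPM in KO-TAC hearts, against 36.2, 43.3 and 49.7 CPM in WT-TAC hearts, a log2 fold change of 0.41 ± 0.20. Sil1, the BiP nucleotide exchange factor, had 15.5, 17.9 and 15.1 CPM in KO-TAC hearts, against 8.49, 12.5 and 11.5 CPM in WT-TAC hearts, with 0.57 ± 0.29. Sil1 groups did not overlap, and neither did those of Shmt2 and Cct6a, given below. Ahsa1, an activator of HSP90, had 78.2, 83.6 and 93.2 CPM in KO-TAC hearts, against 65.6, 65.8 and 64.5 CPM in WT-TAC hearts, and its log2 fold change was 0.38 ± 0.17. Its 3 KO-TAC libraries lay above every WT-TAC library. Gdf15, a secreted stress cytokine, spanned 1.03 to 3.95 CPM in KO-TAC hearts and 0.629 to 1.51 CPM in WT-TAC hearts, with overlapping groups and a log2 fold change of 1.23 ± 0.77. All 8 subunits of the chaperonin TRiC, which folds actin and tubulin, had positive log2 fold changes, with a median of 0.17, and 7 of the 8 did with no scaling beyond library totals and 6 without WT-TAC replicate 1. For Cct4, the first of them by p, the levels were 89.7, 75.1 and 105 CPM in KO-TAC hearts, against 57.6, 60.9 and 83.3 CPM in WT-TAC hearts, with overlapping groups and 0.42 ± 0.21. Trap1, mitochondrial HSP90, had a log2 fold change of 0.26 ± 0.19. The remaining genes picked by p within each list were all positive, with log2 fold changes of 0.57 ± 0.34 for Derl2, 0.30 ± 0.20 for Shmt2, 0.82 ± 0.69 for Psat1, 0.43 ± 0.21 for Hspa4l and 0.65 ± 0.34 for Hspbp1. For Cct3 it was 0.36 ± 0.20, for Cct6a 0.26 ± 0.19, for Clpx 0.43 ± 0.34 and for Grpel1 0.18 ± 0.19.

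Some counts could include reads from other genes. Which library kit was used for each sample, and whether reads were counted by strand, is not stated in the labels. On the opposite strand, Hspa1a shares 564 exonic bases with Gm20481, Hsp90b1 415 bases with a pseudogene (10.3% of its exons) and Cryab 252 bases with Hspb2. Hspd1 and Hspe1 share 112 exonic bases (7.60% of the Hspe1 exons), so reads there could enter either side of their ratio. Annotated genes or pseudogenes outside the table, at other places in the genome, matched at 95% identity or more over at least 150 bases. There were such matches for Hspa8 (6), Hsp90aa1 (3), Hspd1 (3), Hspb1 (2) and Hspe1 (1). Hspa1b also matched Gm20481, at 97.6% over 335 bases. The Hspd1 matches aligned over 1722, 161 and 153 bases. Reads from stretches identical between a gene and its match cannot be told apart.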

How the data were processed

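The deposited table holds raw counts of reads per gene symbol, made by the authors; per the submitters' processing notes the tools included FastQC, HISAT2 2.1.0, Subread and edgeR with the builds mm10 and GRCm38. The parameters and the strand setting of the counting were not stated. Per the labels' protocols, RNA of the 6 heart samples went into Illumina TruSeq libraries made with a plain or a stranded kit. All 6 columns were used.

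Genes were filtered with filterByExpr (minimum count 10), scaled by TMM and tested with the quasi-likelihood F-test of edgeR 4.0.16 (robust, R 4.3.3), KO-TAC over WT-TAC with no covariate, and p-values were adjusted by Benjamini-Hochberg over all 12487 tested genes at a threshold of 0.05. The 95% intervals use the fit's standard error and degrees of freedom. CPM used TMM-scaled totals of the tested genes, and log2 CPM a prior count of 2. Levels were divided by the joined length of all exons that GENCODE annotates for the gene on GRCm38. The common biological coefficient of variation was 0.286. Between libraries, counts differed more than sampling noise, so no library was taken as a repeat sequencing of another. That check cannot show whether the samples came from separate animals. The code was tested on simulated data. The alternatives comprised DESeq2 1.42.0, limma-voom (limma 3.58.1) with and without quality weights, other scalings (RLE, upper quartile, library totals), no filter on low counts, a filter of 1 CPM in 3 libraries, a replicate block and leaving out each library.

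The genes and lists were chosen with earlier results of these data known. All 35 genes are named. From each list of other pathway genes, up to 3 with the smallest p were named.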

Additional observations from a re-analysis of the deposited data

How the results depend on the processing

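Over all alternatives, 0 of the 35 genes and 0 of the 108 other pathway genes passed the adjusted threshold, and the lowest adjusted p of any of the 35 was 0.655, without KO-TAC replicate 3 (edgeR, Benjamini-Hochberg), against 0.872 to 1.00 under the other settings. Over the whole table the count of called genes was 3, and it was 21 with no filter on low counts, 17 with DESeq2 and 0 with limma-voom, and leaving out 1 library gave 0 (without WT-TAC replicate 1) to 7 (without KO-TAC replicate 2), with 6 without KO-TAC replicate 3. Of 527 recomputed values, 495 kept their direction and their side of the threshold and 32 changed sign, 22 of these when 1 library was left out. The log2 fold changes of 20 of the 35 genes, Pdia4, Calr and Hspa5 among them, kept their sign in every alternative run. The cause of the changes of sign was not tested.

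Signs turned as follows. Hspa9 was -0.016 with no scaling beyond totals, -0.031 with limma-voom and -0.19 with quality weights. Manf was -0.013 with limma-voom. With quality weights Canx was -0.021, Sdf2l1 -0.16 and Ddit3 0.29. Hspa1a was 0.037 when summed with Hspa1b. Leaving out 1 library at a time gave -0.093 to 0.17 for Canx, -0.36 to 0.65 for Sdf2l1, -0.37 to 0.034 for Xbp1, -0.31 to 0.32 for Ddit3 and -0.34 to 0.20 for Hspa9. It gave -0.29 to 0.23 for Manf, -0.32 to 0.22 for Herpud1, -0.25 to 0.83 for Asns, -0.059 to 0.27 for Dnajb1 and -0.028 to 0.29 for Pdia3. It gave -0.11 to 0.23 for Pdia6, -0.22 to 0.066 for Hspb6, -0.34 to 0.045 for Hspb7 and -0.39 to 0.036 for Hspd1.

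The groups share replicate numbers, and same-numbered libraries correlated at 0.13, 0.011 and 0.26 in their deviations from the group means, the last being the highest of the 9 pairs. KO-TAC replicates 1 and 3 correlated best with their own number, while KO-TAC replicate 2 correlated best with WT-TAC replicate 1 (0.15). These values do not settle whether the numbers pair the samples, and the main fit did not pair them. With a replicate block, 6 genes of the table were called, Hspa9 was -0.034 and Manf -0.016. In that fit 3 of the 35 (Calr, Pdia4 and Hspb1) had an unadjusted p under 0.05, beside 574 of all 12487 tested genes. With quality weights 4 of the 35 did (Calr, Pdia4, Dnajb9 and Hspb1), beside 691 of 12487. Genes with few counts, such as Hspa1a and Chac1, had the widest standard errors, up to 0.82 on the log2 scale.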
